A study of Mus musculus with 3 samples.

Results

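Among distal epithelial cells of the E14.5 mouse lung, 1316 barcodes with a high surfactant score were described, out of 5976 barcodes that passed a gate for distal epithelium and 12967 barcodes deposited. In 10x Genomics 3' single-cell RNA sequencing a barcode marks the transcripts of 1 droplet, usually 1 cell, and transcripts are counted as unique molecular identifiers (UMIs). The gate took barcodes with at least 5000 UMIs, at most 10% mitochondrial UMIs, at least 3 UMIs of the epithelial surface gene Epcam, fewer than 10 UMIs of the macrophage genes C1qa, C1qb and C1qc together, and 0 UMIs of the proximal airway factor Sox2. A surfactant score was the share of a barcode's UMIs that came from Sftpa1, Sftpb and Cxcl15, and a type 1 score the share from Hopx, Clic5, Ager and Akap5, genes of alveolar type 1 cells. A score was high when it lay strictly above the 75th percentile of the gated barcodes of the same library. Surfactant-high barcodes, called members below, had a high surfactant score and a type 1 score that was not high. The members were chosen by these measured UMI shares and set against all other gated barcodes of the same library.

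The 2 sorts were Epcam+ Icam+ (2 libraries, replicates 1 and 2) and Epcam+ (1 library). All came from lungs of C57/B6 mouse embryos at E14.5, with no other genotype and no treatment in the labels. Lungs of embryos from 2 pregnant females were pooled, digested with Dispase II, Collagenase A and DNase 1, cleared of red cells and stained for Epcam and for Icam1, an adhesion molecule bound by leukocytes. The labels do not say that the libraries came from separate pools, so the p-values reflect the spread among these samples alone, which may be technical. The libraries held 4739, 4531 and 3697 barcodes with 74170599, 67843828 and 84460347 UMIs. The Epcam+ library stood apart before any comparison, with another software version in its file headers and another gene table, and the sort cannot be told apart from these or from the library itself. Values are given in the order Epcam+ Icam+ replicate 1, Epcam+ Icam+ replicate 2, Epcam+, and counts without each library in turn leave them out in that order.

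Alveolar type 2 cells line the air sacs and secrete surfactant, a film of phospholipids and surfactant proteins that lowers surface tension. Its lipids are packed in lysosome-related organelles, the lamellar bodies, in which the precursors of surfactant proteins B and C are also cut to their mature forms. In the embryo both alveolar cell types arise from distal tip progenitors, which carry Sox9 and Id2 and respond to FGF, BMP and Wnt signals, and the thin type 1 cells form the gas exchange surface.

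Members numbered 441, 407 and 468, which was 21.6%, 22.8% and 21.8% of the gated barcodes. The share is fixed near these values by the percentile. As many barcodes were high in the type 1 score alone, which follows from using the same percentile for both scores. A further 68, 40 and 70 barcodes were high in both scores, and 1087, 935 and 1144 in neither. No barcode sequence was shared between members of different libraries.

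The score that chose the members is given as a description, with no test. Its threshold was 77.6, 92.8 and 324 CPM (counts per 1000000 UMIs of the barcode). The median score was 240, 262 and 478 CPM in members, against 0, 0 and 119 CPM in the other barcodes, and the highest member had 3169, 2289 and 2678 CPM. In UMIs these medians were 6, 7 and 15 in members, against 0, 0 and 3 in the other barcodes. Members of the Epcam+ Icam+ libraries thus often rested on few molecules: 123 (27.9%) and 83 (20.4%) of them had fewer than 4 score UMIs, against 6 (1.28%) of the Epcam+ members. The member just inside the threshold had 1 score UMI of 12738 (78.5 CPM), 3 of 32235 (93.1 CPM) and 18 of 55486 (324.4 CPM), and the barcode just outside had 2 of 25759 (77.6 CPM), 2 of 21548 (92.8 CPM) and 17 of 52653 (322.9 CPM). All 3 score genes were found together in 45.4%, 45.9% and 76.5% of members, against 0.501%, 0.434% and 22.6% of the other barcodes. Scored on counts thinned to 5000 UMIs per barcode, 396, 383 and 274 barcodes were chosen, and 70.7%, 74.7% and 45.3% of the members were among them.

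**Figure D1:**
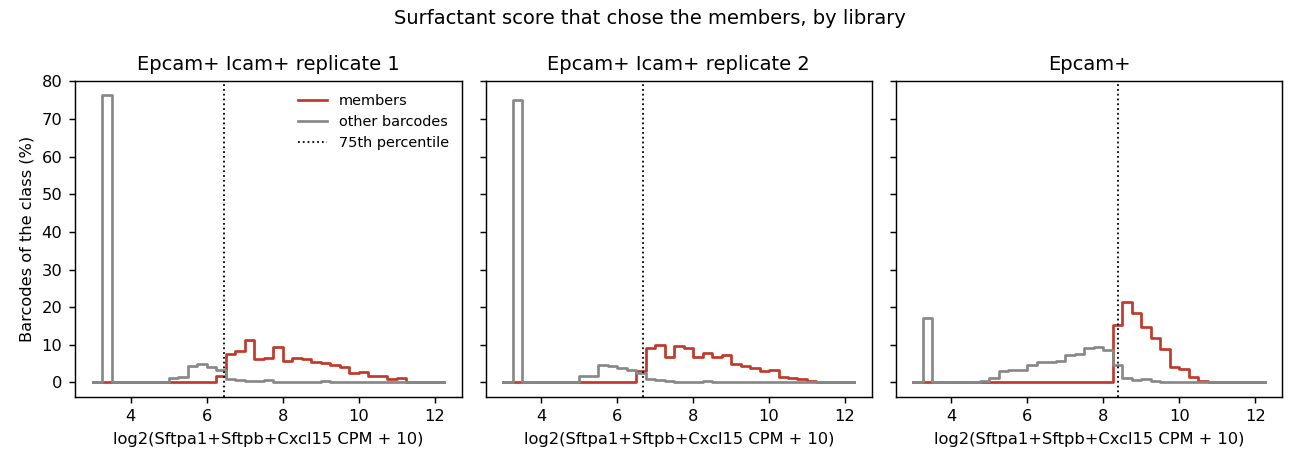
Distribution of the surfactant score in members and in the other gated barcodes of each library (x axis, log2 of the summed CPM of Sftpa1, Sftpb and Cxcl15 plus 10; y axis, percent of the barcodes of the class; dotted line, 75th percentile of the library). In the Epcam+ Icam+ libraries most other barcodes sit at a score of 0, while in the Epcam+ library their median is 119 CPM and the threshold of 324 CPM is crossed by a continuous distribution; other barcodes right of the line are those high in both scores.

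Sftpa1 encodes surfactant protein A, a collectin that binds lipids and microbes. Over the summed UMIs of a class it stood at 125, 127.5 and 146.3 CPM in members, against 2.99, 2.34 and 26.2 CPM in the other barcodes. Sftpb encodes the precursor of surfactant protein B, which is needed to form lamellar bodies, and stood at 158.7, 163 and 290.7 CPM in members, against 7.88, 6.70 and 62.5 CPM in the other barcodes. Cxcl15, a chemokine of mouse lung epithelium also known as lungkine, stood at 105.4, 106.7 and 103.5 CPM in members, against 10.7, 10.1 and 60.5 CPM in the other barcodes. On mm10 (GENCODE vM21) Sftpa1 lies on chromosome 14 from 41131782 to 41136452, Sftpb on chromosome 6 from 72304610 to 72314371 and Cxcl15 on chromosome 5 from 90794534 to 90803067. Each score gene can be measured apart from the choice by taking members with the other score genes only. So chosen, Sftpa1 was higher in members by 3.37 on the log2 scale (SE 0.548, edgeR quasi-likelihood adjusted p = 0.00635, 3 libraries), with 120.9, 123.9 and 113.5 CPM in members, against 4.76, 4.53 and 36.7 CPM in the other barcodes. Sftpb differed by 2.48 (SE 0.336, edgeR adjusted p = 0.00168), with 144.9, 144.1 and 211.4 CPM in members, against 13.9, 16.6 and 90.2 CPM in the other barcodes. Cxcl15 differed by 1.64 (SE 0.37, edgeR adjusted p = 0.0144), with 87.5, 92.7 and 82.4 CPM in members, against 16.8, 15.9 and 66.8 CPM in the other barcodes. Without Epcam+ Icam+ replicate 1 the Cxcl15 difference was 1.32 (edgeR adjusted p = 0.163) and did not pass. The score genes thus went together across barcodes in every library, least so for Cxcl15 in the Epcam+ library.

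The promoters of the score genes and of Lamp3, the type 2 marker with the largest test-passing difference at more than a few UMIs, are shown because their transcripts move together. Each window is the 250 bases before the gene's start from RefSeq on GRCm38.p6, 5′ to 3′ on the gene's strand. Capitals mark matches on either strand to CTCAAG (a core motif of NKX2-1, the lung lineage factor) or TGTTTNC (FOXA factors).
Sftpa1, chr14:41131538-41131787 (+): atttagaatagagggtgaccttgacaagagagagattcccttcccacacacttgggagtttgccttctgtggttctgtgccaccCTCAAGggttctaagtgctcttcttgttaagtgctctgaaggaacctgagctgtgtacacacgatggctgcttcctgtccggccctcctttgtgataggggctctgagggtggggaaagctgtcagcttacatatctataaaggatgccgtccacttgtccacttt
Sftpb, chr6:72304360-72304609 (+): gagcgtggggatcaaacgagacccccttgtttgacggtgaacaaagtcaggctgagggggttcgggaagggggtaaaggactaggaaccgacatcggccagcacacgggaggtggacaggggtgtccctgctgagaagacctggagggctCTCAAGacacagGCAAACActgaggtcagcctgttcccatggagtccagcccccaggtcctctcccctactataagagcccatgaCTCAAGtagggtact
Cxcl15, chr5:90794284-90794533 (+): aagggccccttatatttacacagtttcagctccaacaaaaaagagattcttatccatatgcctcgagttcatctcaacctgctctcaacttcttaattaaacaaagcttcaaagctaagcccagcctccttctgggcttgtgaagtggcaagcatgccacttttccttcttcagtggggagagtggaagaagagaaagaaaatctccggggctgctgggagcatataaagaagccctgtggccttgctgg
Lamp3, chr16:19706366-19706615 (-): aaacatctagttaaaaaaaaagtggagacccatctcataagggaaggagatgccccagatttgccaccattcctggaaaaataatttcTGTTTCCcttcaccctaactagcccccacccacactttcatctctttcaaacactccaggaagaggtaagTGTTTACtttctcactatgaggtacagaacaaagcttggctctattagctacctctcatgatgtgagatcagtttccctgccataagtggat
Counted from the start of the gene, the NKX2-1 letters begin at -166 in Sftpa1 and at -100 and -15 in Sftpb. FOXA letters begin at -88 in Sftpb and at -162 and -92 in Lamp3, and the Cxcl15 window holds none of them. Of 18 score and type 2 genes looked up, 15 had a promoter in the table, Sftpc not among them. CTCAAG was found in 2 of the 15, TGTTTNC in 5 and the CEBP motif TTGCNNAA in 3, while 13.3%, 17.8% and 9.56% of all 32851 promoter windows of that length held each. A match is a description of letters and not evidence of binding.

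Alveolar type 2 genes that the rule did not use were higher in members. Of 13547 genes tested between members and the other barcodes within libraries, 1739 (12.8%) were higher and 1404 (10.4%) lower in members (edgeR quasi-likelihood, library as a block, adjusted p under 0.05), with a median log2 difference of -0.00723. DESeq2 called 1368 genes higher and 657 lower, and RLE scaling 2271 higher and 1229 lower. Without Epcam+ Icam+ replicate 1, Epcam+ Icam+ replicate 2 and the Epcam+ library, 1097, 1185 and 5112 genes passed, of which 564, 530 and 2712 were higher. Counts of list genes without each library in turn, given below, stand beside these totals and partly follow them. A fit without the library block called 0 genes (edgeR, 503 at an unadjusted p under 0.05). These genes were measured in the same barcodes that the score genes chose. Of 14 type 2 markers tested (15 listed, Chil1 too low), 9 were higher and 1 lower, with a median of 1.18. Of 8 genes of surfactant protein processing and lamellar bodies, which share Abca3, Lamp3, Napsa and Slc34a2 with that list, 6 were higher and 0 lower, with a median of 1.36.

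Sftpc, the precursor of surfactant protein C (chromosome 14, 70520949 to 70524081), stood at 13107, 13396 and 3359 CPM in members, against 3800, 4191 and 2402 CPM in the other barcodes. It was higher in the members of each library, though the Epcam+ members lay below the other barcodes of both Epcam+ Icam+ libraries. The log2 fold change was 1.34 (SE 0.205, edgeR adjusted p = 0.00255). A Sftpc UMI was found in 99.5%, 99.8% and 99.8% of members, against 82.8%, 81.2% and 98.9% of the other barcodes at median depths of 25142, 26524 and 30514 UMIs in members and 19597.5, 19943.5 and 27420.5 UMIs in the other barcodes. In macrophage barcodes of the same libraries, which should lack it, 51.1%, 49.7% and 94.4% had a Sftpc UMI at 167, 130 and 164 CPM (median depths 22228, 23403.5 and 24390 UMIs). The share of the other Epcam+ barcodes lies within the interval of the macrophage share there (81.3% to 99.3%, exact binomial, 36 barcodes), so a Sftpc UMI alone separates nothing in that library, while the levels differ many-fold.

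Lamp3, a membrane protein of lamellar bodies (chromosome 16, 19653378 to 19706375), stood at 16.1, 15.5 and 10.2 CPM in members, against 0.478, 0.335 and 2.37 CPM in the other barcodes. The log2 fold change was 3.59 (SE 0.476, edgeR adjusted p = 0.0014). Thinned to 5000 UMIs, a Lamp3 UMI was found in 8.39%, 6.39% and 5.34% of members, against 0.188%, 0.0724% and 1.07% of the other barcodes. Unthinned these shares were 24.3%, 24.3% and 22.9% of members, against 0.689%, 0.724% and 5.77% of the other barcodes. Macrophage barcodes held it in 1 of 399, 0 of 382 (which allows up to 0.961%, exact binomial) and 1 of 36. Fewer than 1 member in 4 thus had a Lamp3 UMI at these depths.

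Abca3, the lipid transporter that loads lamellar bodies, stood at 36.8, 35.5 and 13.2 CPM in members, against 10.6, 10.6 and 6.66 CPM in the other barcodes (log2 1.56, SE 0.139, edgeR adjusted p = 0.000203). It was found in 52.8%, 55.3% and 34.0% of members, and in 18.3%, 19.0% and 16.5% of the other barcodes, which in the Epcam+ Icam+ libraries is below the 27.3% and 24.3% of macrophage barcodes. Napsa, an aspartic protease that cuts the surfactant protein B precursor, stood at 60.8, 78.4 and 7.72 CPM in members, against 23.8, 18.4 and 3.79 CPM in the other barcodes (log2 1.61, SE 0.157, edgeR adjusted p = 0.000305). Macrophage barcodes held Napsa at 42.2, 47.5 and 44.5 CPM, above the other barcodes and, in the Epcam+ library, above the members. Ctsh, cathepsin H, which takes part in the same processing, stood at 391.8, 401.8 and 168.4 CPM in members, against 183.9, 175.2 and 78.4 CPM in the other barcodes. Its log2 difference of 1.15 had the smallest error among these genes (SE 0.0388, edgeR adjusted p = 5.02e-06). Pgc, an aspartic protease of type 2 cells, was higher by 0.54 (edgeR adjusted p = 0.0107), a call lost without Epcam+ Icam+ replicate 1.

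Slc34a2, a sodium-phosphate cotransporter of type 2 cells, passed the test (edgeR adjusted p = 0.00507) on few molecules: 65, 49 and 1 UMIs in members, against 4, 1 and 8 UMIs in the other barcodes. It was thus seen in the members of the Epcam+ Icam+ libraries and hardly at all in the Epcam+ library. Egfl6, a secreted protein with EGF-like repeats, stood at 167.7, 171.5 and 126.5 CPM in members, against 58.3, 64.1 and 63.3 CPM in the other barcodes (log2 1.33, SE 0.0875, edgeR adjusted p = 5.18e-05). Cebpa, a transcription factor of lipid-handling cells, was higher by 0.62 (SE 0.104, edgeR adjusted p = 0.00388), and the cytokine gene Il33 passed at no more than 1.25 CPM. Muc1, a membrane mucin, was the marker that was lower, at 36.9, 33.4 and 18.9 CPM in members, against 46.4, 42.0 and 27.8 CPM in the other barcodes. Sftpd, Hc and S100g stood at no more than 1.99 CPM in members and did not pass, and Lyz2 stood at 23.8, 23.5 and 3.30 CPM in members, against 31.8, 22.8 and 7.51 CPM in the other barcodes, without passing (it was lower without Epcam+ Icam+ replicate 2 or the Epcam+ library). Sftpd, a marker of mature type 2 cells, was therefore close to 0, while Lyz2 and Muc1 were found in members without being higher there, and the label "alveolar type 2-like" rests on the surfactant and lamellar body genes.

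**Figure D2:**
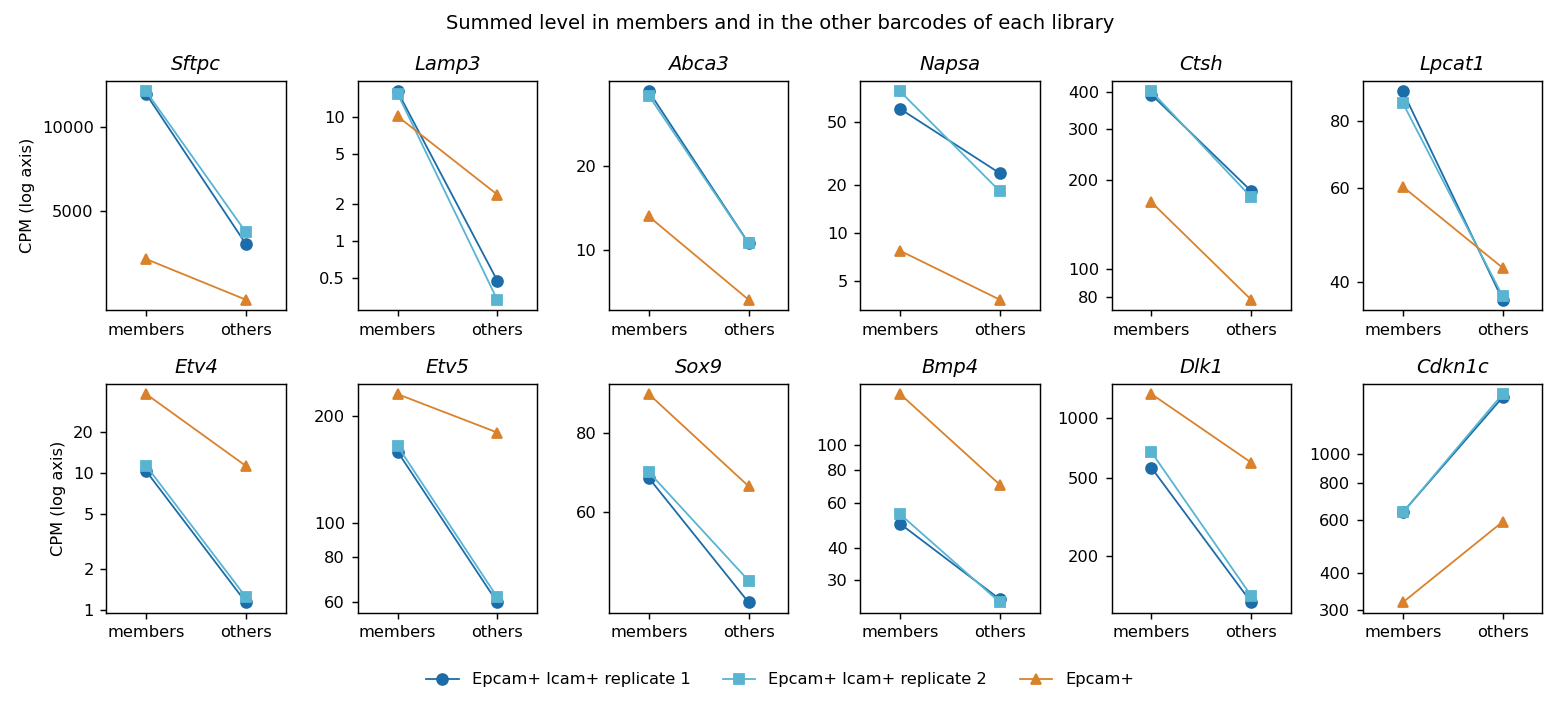
Level of 12 genes in members and in the other barcodes of each library (y axis, CPM of the summed UMIs, log scale that differs between panels; lines join the classes of 1 library). Sftpc, Lamp3, Abca3, Napsa, Ctsh, Lpcat1, Etv4, Etv5, Sox9, Bmp4 and Dlk1 are higher and Cdkn1c is lower in the members of each library. Within the Sftpc panel the Epcam+ line is the flattest, at 3359 CPM in members and 2402 CPM in the other barcodes.

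Genes of surfactant lipid synthesis did not move as a group. Of 16 tested, 4 were higher and 1 lower, with a median of -0.0163, and 2, 2 and 6 were higher without each library in turn. Lpcat1, the acyltransferase that makes saturated phosphatidylcholine, stood at 91.1, 86.6 and 60.4 CPM in members, against 37.0, 37.6 and 42.5 CPM in the other barcodes (log2 1.02, SE 0.129, edgeR adjusted p = 0.00112). Scd1, a fatty acid desaturase, was higher by 0.99 at 4.60, 5.37 and 6.07 CPM in members, and the fatty acid synthase gene Fasn and its regulator Srebf1 were higher by 0.22 and 0.27. Pcyt1a, the rate-limiting enzyme of phosphatidylcholine synthesis, was lower by a log2 of -0.30 (edgeR adjusted p = 0.0461). The calls of Fasn, Srebf1 and Pcyt1a were lost without either Epcam+ Icam+ library. Cholesterol synthesis had 0 of 16 genes higher and 1 lower (0, 1 and 4 lower without each library in turn).

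Alveolar type 1 genes outside the rule were lower, a direction that the choice of members favours. Of 15 tested, 8 were lower and 1 higher, with a median of -0.38. Emp2, a tetraspan membrane protein, stood at 137.9, 115.5 and 17.2 CPM in members, against 246, 228.6 and 35.9 CPM in the other barcodes (log2 -0.92, SE 0.0518, edgeR adjusted p = 2.95e-05). Lmo7, a protein of cell junctions, stood at 63.2, 57.0 and 9.10 CPM in members, against 127.6, 119.6 and 10.7 CPM in the other barcodes, and Cav1, the caveolin of type 1 cells, was lower by a log2 of -0.96. Pdpn, a mucin-like surface protein, was higher by 0.21 (SE 0.0614, edgeR adjusted p = 0.0399), a call lost without either Epcam+ Icam+ library. Igfbp2, which binds insulin-like growth factors, did not pass, with a difference of 0.01 (SE 0.0318). Of the rule's own type 1 genes, Hopx stood at 89.7, 80.0 and 9.04 CPM in members, against 192.8, 181.3 and 9.98 CPM in the other barcodes, and so was low in every class of the Epcam+ library.

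Distal tip genes were higher in members along with the surfactant genes. Of 9 tip markers tested, 8 were higher and 0 lower, with a median of 0.68, and only Sox11 did not pass. Etv4, an ETS factor induced by FGF signalling, stood at 10.3, 11.3 and 37.5 CPM in members, against 1.14, 1.24 and 11.2 CPM in the other barcodes (log2 2.32, SE 0.245, edgeR adjusted p = 0.000462). Its paralogue Etv5 stood at 158.7, 164.6 and 230.4 CPM in members, against 59.7, 61.7 and 179.6 CPM in the other barcodes (log2 1.06, SE 0.176, edgeR adjusted p = 0.00384). Sox9, the tip progenitor factor, stood at 67.9, 69.4 and 92.3 CPM in members, against 43.1, 46.7 and 65.9 CPM in the other barcodes (log2 0.59, SE 0.0514, edgeR adjusted p = 0.000179). A Sox9 UMI was found in 64.4%, 66.8% and 82.1% of members, against 44.6%, 47.1% and 67.8% of the other barcodes and 5.51%, 6.81% and 8.33% of macrophage barcodes. Thinned to 5000 UMIs these shares were 22.7%, 29.7% and 35.0% of members, against 16.3%, 18.5% and 23.5% of the other barcodes. Most members thus held both surfactant and Sox9 transcripts.

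Bmp4, the BMP ligand of the tip, stood at 49.7, 54.2 and 158 CPM in members, against 25.4, 24.7 and 70.4 CPM in the other barcodes (log2 1.12, SE 0.0547, edgeR adjusted p = 1.42e-05). Of 9 BMP ligands and targets, which include Bmp4 and Id2, 5 were higher and 0 lower, with a median of 0.56. The targets Id2, at 253.8, 260.3 and 727.7 CPM in members, against 158.3, 152.6 and 501.5 CPM in the other barcodes, and Id1 and Bambi were among them. Of 11 Wnt targets 4 were higher (Axin2, Tcf7, Sp5 and Wnt7b) and 1 lower (Wif1, a Wnt inhibitor), with a median of 0.06. Of 14 FGF and ERK targets 6 were higher (Etv4, Etv5, Dusp4, Spred2, Phlda1 and the receptor Fgfr2) and 2 lower (Egr1 and Fgfr3), with a median of 0.17; 3, 4 and 7 were higher without each library in turn. Of these and the Wnt genes, Spred2, Fgfr2, Tcf7 and Wif1 lost the call without either Epcam+ Icam+ library, and Dusp4 without replicate 1. The EGF family was mixed, with 2 of 10 higher and 2 lower. Areg, the ligand amphiregulin, stood at 233.8, 277.8 and 27.5 CPM in members, against 118.9, 112.9 and 17.9 CPM in the other barcodes, whereas the ligand Nrg1 was lower by a log2 of -1.36 (SE 0.119, edgeR adjusted p = 0.000182). Of 9 Notch genes 1 was higher and 3 lower, and of 11 TGF-beta genes 2 were higher and 3 lower. Without each library in turn 0, 1 and 2 Notch genes and 3, 3 and 5 TGF-beta genes were lower.

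Of 28 lung epithelial transcription factors tested, 12 were higher and 3 lower, with a median of 0.12, and 5, 7 and 17 were higher without each library in turn. Nkx2-1 itself stood at 216.4, 223.3 and 215.3 CPM in members, against 203.7, 202.2 and 223.9 CPM in the other barcodes, and did not pass (log2 0.08, SE 0.0451, edgeR adjusted p = 0.244). Foxa2 and Gata6, factors of early lung endoderm, were higher by 0.28 and 0.24, and Elf5, a tip factor, by 0.26. Klf5, Tead1 (a partner of YAP) and Nr3c1 (the glucocorticoid receptor) were lower, by log2 changes of -0.47, -0.41 and -0.28. Foxa2, Elf5 and Nr3c1 lost the call without either Epcam+ Icam+ library, and Gata6 without replicate 1. Of 9 glucocorticoid response genes 0 were higher and 2 lower.

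Cell cycle genes were higher in members, by small amounts. Of 38 S phase genes 29 were higher and 0 lower, with a median of 0.27, and of 50 genes of G2 and mitosis 36 were higher and 0 lower, with a median of 0.29. The proliferation gene Mki67 stood at 192.5, 184.2 and 63.2 CPM in members, against 160.1, 154.8 and 60.8 CPM in the other barcodes (log2 0.22, SE 0.0495, edgeR adjusted p = 0.0135), and the topoisomerase gene Top2a was higher by 0.32, and both calls were lost without either Epcam+ Icam+ library. These counts rested on the libraries: 5, 3 and 38 S phase genes were higher without Epcam+ Icam+ replicate 1, Epcam+ Icam+ replicate 2 and the Epcam+ library, and 6, 7 and 50 genes of G2 and mitosis. Of 14 genes of G1, 3 were lower and 0 higher (3, 3 and 5 lower without each library in turn). Cdkn1c, the cyclin-dependent kinase inhibitor p57, stood at 638.1, 637.8 and 318.1 CPM in members, against 1554, 1593 and 592.9 CPM in the other barcodes (log2 -1.15, SE 0.0695, edgeR adjusted p = 3.58e-05). The antiproliferative gene Btg2 was lower by a log2 of -0.33, and Ccnd2, a cyclin that drives entry into the cycle, stood at 158.4, 151.8 and 143.6 CPM in members, against 360.5, 344.4 and 282.7 CPM in the other barcodes.

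Of 16 MYC and ribosome biogenesis genes 14 were higher and 1 lower, with a median of 0.36 (11, 8 and 15 higher without each library in turn). Srm, spermidine synthase, stood at 57.3, 58.9 and 176 CPM in members, against 26.6, 27.7 and 130 CPM in the other barcodes. Mycn was higher by 0.40 while Myc, at 14.4, 14.1 and 8.57 CPM in members, against 25.1, 21.6 and 10.2 CPM in the other barcodes, was the gene that was lower. Mycn lost the call without Epcam+ Icam+ replicate 2 and Myc without replicate 1. Members also had more UMIs per barcode (medians above). For this comparison the closing paragraphs give the thinned fit as a total count of genes, not by list. The part of depth in these differences was not tested beyond that total. Of 15 histone genes 8 were higher and 1 lower, with 2, 1 and 12 higher without each library in turn.

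Genes of the keratin-high transitional state, a state described between type 2 and type 1 cells in adult repair, were lower. Of 16 tested, 11 were lower and 3 higher (Areg, Clu and Tpm1), with a median of -0.53. Krt19, a keratin of simple epithelia, stood at 457, 449 and 275.5 CPM in members, against 760.5, 739 and 360 CPM in the other barcodes. Icam1, the gene of the sort, stood at 169.5, 155.2 and 122 CPM in members, against 213.1, 210.9 and 173.8 CPM in the other barcodes (log2 -0.41, SE 0.0449, edgeR adjusted p = 0.0006). Icam1 counts among 12 NF-kB response genes, of which 1 was higher and 3 lower. Of 12 ion transport genes 5 were lower, among them the sodium channel subunits Scnn1a, Scnn1b and Scnn1g, and 2 higher (0, 0 and 2 without each library in turn), with a median of -0.34. Scnn1b stood at 0.836, 1.21 and 0.923 CPM in members, against 6.90, 6.03 and 2.53 CPM in the other barcodes.

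Counting only genes with a log2 difference of at least 0.5 and the same direction in each library, 386 genes (2.85%) were higher and 639 (4.72%) lower. The 12 largest differences above 20 CPM on average in each direction were mostly outside the lists. Dlk1, an imprinted transmembrane relative of the Notch ligands, stood at 560.2, 671.6 and 1321 CPM in members, against 117, 126.2 and 595.4 CPM in the other barcodes (log2 1.95, SE 0.201, edgeR adjusted p = 0.000399). Cox4i2, the lung isoform of a cytochrome oxidase subunit, stood at 29.3, 34.0 and 38.5 CPM in members, against 4.15, 4.15 and 10.6 CPM in the other barcodes (log2 2.48, SE 0.19, edgeR adjusted p = 9.84e-05). Cthrc1, a secreted protein with a collagen repeat, stood at 38.9, 41.9 and 71.0 CPM in members, against 5.32, 4.45 and 26.0 CPM in the other barcodes (log2 2.305, SE 0.273, edgeR adjusted p = 0.000821).

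Pthlh, parathyroid hormone-related protein, a signal of lung epithelium to mesenchyme, stood at 14.46, 13.86 and 73.9 CPM in members, against 2.15, 1.61 and 25.7 CPM in the other barcodes (log2 2.07). Pcsk6, a proprotein convertase, was higher by 2.29, but shares exon sequence with a gene ID that only some of the gene tables hold. Dram1, a lysosomal membrane protein of autophagy, stood at 132.1, 129.5 and 55.7 CPM in members, against 29.5, 29.6 and 23.6 CPM in the other barcodes (log2 1.88, SE 0.152, edgeR adjusted p = 0.000129). The remaining genes of the 12 were Napsa, Sftpc, Egfl6, the hydrolase gene Abhd2 (1.33), the cell cycle regulator Rgcc (1.29) and the prostaglandin transporter Slco2a1 (1.25).

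Among the 12 lowest, Smoc2, a secreted calcium-binding matrix protein, stood at 28.6, 29.6 and 32.8 CPM in members, against 94.6, 88.3 and 126.6 CPM in the other barcodes (log2 -1.74, SE 0.07, edgeR adjusted p = 5.76e-06). Cldn10, a tight junction protein, stood at 82.8, 74.4 and 44.9 CPM in members, against 196.9, 199.5 and 103.8 CPM in the other barcodes (log2 -1.27, SE 0.0523, edgeR adjusted p = 5.76e-06). Cryab, a small heat shock protein, Sprr1a, a protein of squamous envelopes, and Fgfbp1, a carrier of FGFs, were lower by log2 changes of -1.53, -1.55 and -1.48. Adamtsl1 (-1.55), Clic3 (-1.42), Pdlim2 (-1.33), the elastic fibre gene Fbln5 (-1.31), Cdkn1c and the potassium channel Kcnk2 (-1.14) were the others. Cd74, the invariant chain of antigen presentation, was lower by -1.74 (SE 0.068), but by only -0.09 (edgeR adjusted p = 0.541) once barcodes with over 5 UMIs of macrophage or mast cell markers were left out. Of 9 antigen presentation genes 0 were higher and 4 lower, and without those barcodes 0 of 9 passed.

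**Figure D3:**
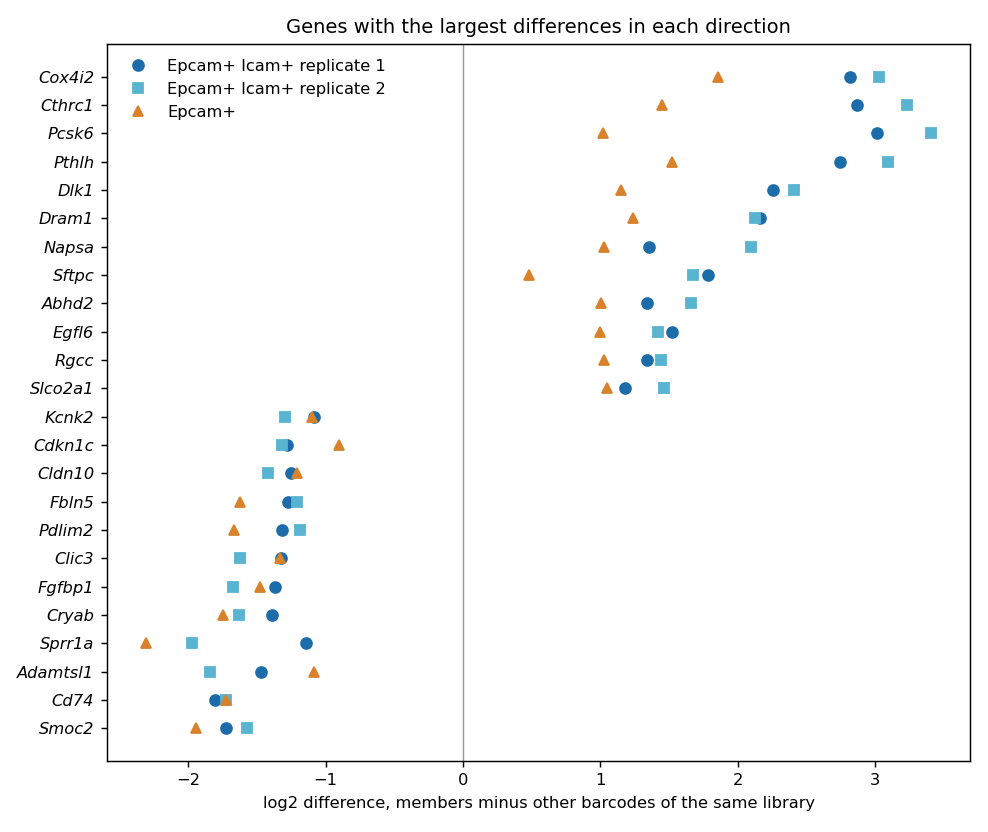
Difference between members and the other barcodes within each library for the 12 genes named above at each end (x axis, log2 difference of CPM; 1 point per library). All points of a gene lie on 1 side of 0; the Epcam+ points of the genes that were higher lie nearer to 0 than those of the Epcam+ Icam+ libraries, for Pcsk6 most of all.

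The other barcodes fall into 3 classes, and the members were set against each in 1 fit of 13077 genes. Against barcodes high in the type 1 score only, 2058 genes (15.7%) were higher and 1602 (12.3%) lower. Type 2 markers were 9 of 12 higher and 1 lower (median 1.45, all genes 0.003), and type 1 markers outside the rule 0 of 14 higher and 12 lower (median -0.81). Of 50 genes of G2 and mitosis 45 were higher (median 0.54), of 38 S phase genes 18 (median 0.22), and of 9 tip markers 8 (median 0.92). Without each library in turn 8, 17 and 50 genes of G2 and mitosis and 1, 3 and 26 S phase genes were higher. The genes with the largest differences were Cthrc1 (3.19), Scgb3a2 (3.05), Dram1 (2.32) and Dlk1 (2.27) among those higher, and Cryab (-2.31) and the chloride channel gene Clic3 (-2.13) among those lower. Clic3 stood at 48.9, 35.7 and 5.08 CPM in members, against 201.7, 168.7 and 22.3 CPM in the type 1 class. The secretory airway gene Scgb3a2 rests on Epcam+ Icam+ replicate 2, in which members had 104.5 CPM, against 12.03 and 5.94 CPM in the members of the other libraries. These were 1206 UMIs in 6 of 407 members (1.47%), while 9 barcodes of the type 1 class there (2.21%) held a Scgb3a2 UMI. Without Epcam+ Icam+ replicate 2 the difference was 0.94 and did not pass, and at a 90th percentile rule its difference was -2.23 (edgeR adjusted p = 0.0649).

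Against barcodes high in both scores, which number 178, 204 genes (1.56%) were higher and 142 (1.09%) lower, with a median of 0.05. The balance depended on the scaling: RLE scaling called 78 genes higher and 159 lower, and DESeq2 118 higher and 202 lower. Of 12 type 2 markers 0 passed (median 0.38), and without the Epcam+ library 6 were higher and 1 lower. Type 1 markers outside the rule were 0 of 14 higher and 6 lower (median -0.40), Emp2 at 137.9, 115.5 and 17.2 CPM in members, against 258.7, 230.3 and 33.0 CPM in the class high in both (log2 -0.90, SE 0.0713, edgeR adjusted p = 2.55e-06). Of 9 tip markers 2 were higher (Id2 and Etv4, by 0.43 and 1.61). Of 50 genes of G2 and mitosis 9 were higher (median 0.38; 0 with RLE scaling and 5 with DESeq2) and of 38 S phase genes 0. Dlk1 was higher here too, at 313.6, 347.8 and 843.5 CPM in the class high in both (log2 0.95, SE 0.207, edgeR adjusted p = 0.0235), with Pthlh (1.53), Cox4i2 (1.36) and the BMP target Bambi (0.88). Cdkn1c did not pass (log2 -0.07, SE 0.0766), at 741.3, 731.3 and 315 CPM in that class. Ndnf, a secreted neurotrophic factor, was lower at 141.9, 137.1 and 20.3 CPM in members, against 317.9, 321.3 and 50.8 CPM in the class high in both (log2 -1.17, SE 0.0659, edgeR adjusted p = 2.42e-08). Without each library in turn 8, 15 and 684 genes passed, with 1, 1 and 11 type 1 markers lower and 0, 0 and 33 genes of G2 and mitosis higher; Id2, Etv4, Dlk1, Pthlh, Cox4i2 and Bambi each lost the call without either Epcam+ Icam+ library. The difference between contrasts was not tested.

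Against barcodes high in neither score, the largest class, 1422 genes (10.9%) were higher and 1260 (9.64%) lower. Type 2 markers were 8 of 12 higher and 2 lower (median 1.20), tip markers 8 of 9 higher (median 0.63), and S phase genes 29 of 38 higher (median 0.30). Genes of G2 and mitosis were 11 of 50 higher (median 0.21), and type 1 markers outside the rule 1 of 14 higher and 7 lower (median -0.28). Without each library in turn 2, 2 and 36 S phase genes and 1, 1 and 38 genes of G2 and mitosis were higher, and 3, 4 and 7 type 1 markers lower. The largest differences were Cox4i2 (2.43), Pcsk6 (2.17), Cthrc1 (2.14) and Dlk1 (1.93) among those higher, and Smoc2 (-1.75), Adamtsl1 (-1.46), Cldn10 (-1.40) and Cdkn1c (-1.27) among those lower. The contrasts share the members, so their values stand side by side and are not independent.

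**Figure D4:**
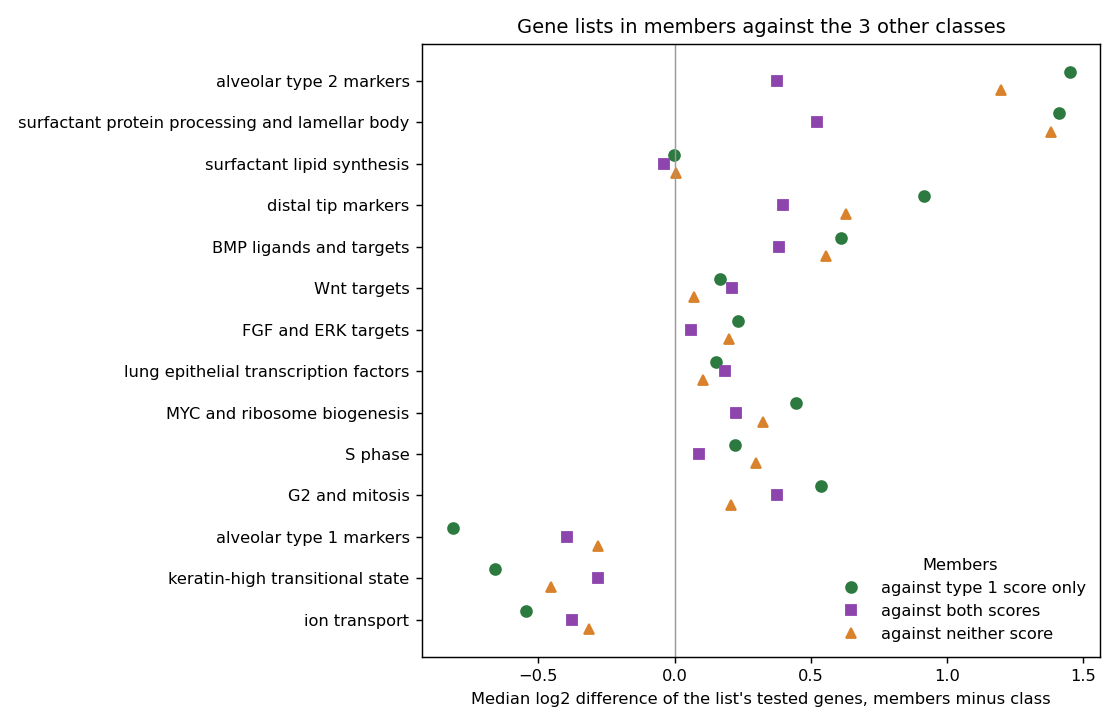
Median log2 difference of the tested genes of 14 lists between members and each of the other classes (x axis, members minus class; circles, type 1 score only; squares, both scores; triangles, neither score). Type 2 and processing genes lie to the right of 0 and type 1 and keratin genes to the left in each contrast; the type 2 median is 1.45 and 1.20 against the classes without a high surfactant score and 0.38 against the class high in both.

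Within the members Sftpc, Lamp3 and Napsa were higher at the highest scores than at the lowest, which is given with no test. Type 2 markers beyond these and those in the figure are not given by score. Each library's members were split by score into 3 near-equal parts of 147, 135 to 136 or 156 barcodes. Lamp3 stood at 2.54, 12.05 and 33.8 CPM from the lowest to the highest part in Epcam+ Icam+ replicate 1, at 3.21, 12.7 and 30.2 CPM in replicate 2, and at 7.72, 7.66 and 15.5 CPM in the Epcam+ library. Sftpc stood at 9752, 12492 and 17063 CPM in replicate 1, at 10212, 13560 and 16296 CPM in replicate 2, and at 3037, 3288 and 3794 CPM in the Epcam+ library. Both genes ran upward in the Epcam+ Icam+ libraries. In the Epcam+ library Sftpc ran upward less steeply, and Lamp3 was level up to the middle part and higher in the highest part. Napsa went with them, at 32.3, 52.9 and 97.3 CPM in replicate 1, 41.8, 53.2 and 139 CPM in replicate 2 and 3.20, 9.43 and 10.9 CPM in the Epcam+ library. The type 1 gene Emp2 ran the other way, at 174, 128 and 112 CPM in replicate 1, 141, 122 and 84.3 CPM in replicate 2 and 21.1, 15.9 and 14.3 CPM in the Epcam+ library. Sox9 and Mki67 showed no order shared by the 3 libraries. Sox9 stood at 62.8, 72.0 and 68.8 CPM in replicate 1, 68.5, 70.2 and 69.4 CPM in replicate 2 and 89.5, 90.1 and 97.9 CPM in the Epcam+ library, upward in the Epcam+ library only. Mki67 stood at 188.5, 205.8 and 183 CPM in replicate 1, 202.4, 175.8 and 175.1 CPM in replicate 2 and 63.9, 61.3 and 64.5 CPM in the Epcam+ library. Median depth per part was 24297 to 25713, 25818 to 27379 and 29448 to 34483 UMIs, with the lowest part deepest in the Epcam+ library.

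**Figure D5:**
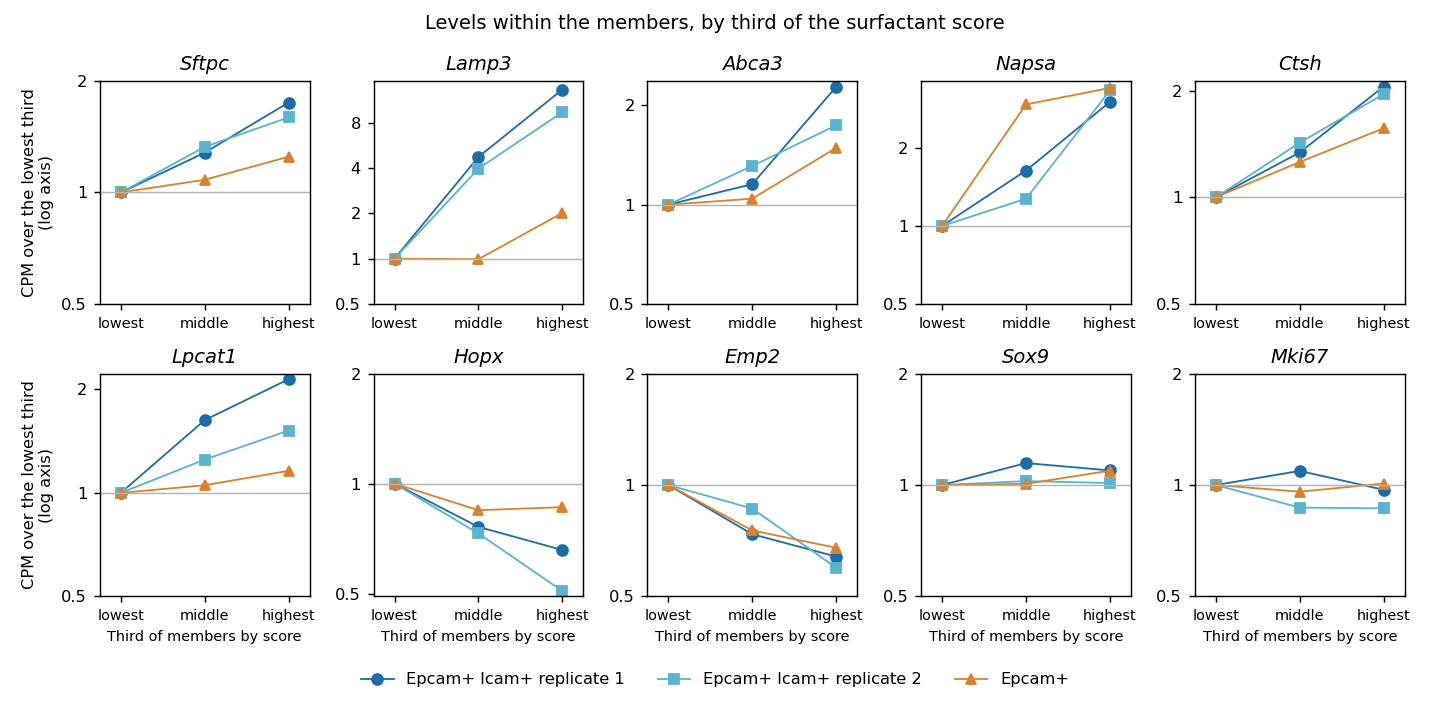
Level of 10 genes within the members, split by surfactant score into 3 parts per library (x axis, part of the members from lowest to highest score; y axis, CPM divided by the CPM of the lowest part, log scale that differs between panels). Sftpc, Lamp3, Abca3, Napsa, Ctsh and Lpcat1 end above the lowest part in each library, Emp2 and Hopx below it, and Sox9 and Mki67 stay near 1; for Lamp3 the Epcam+ members stand at 7.72 CPM in the lowest part and 15.5 CPM in the highest.

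Across all gated barcodes of a library, thinned to 5000 UMIs, the genes whose counts followed the score most closely were ranked among 5229 genes by the lowest Spearman rho over the 3 libraries. Dlk1 came first (0.41, 0.45 and 0.37 over 2037, 1789 and 2150 barcodes), before Bex4 (0.28, 0.30 and 0.26), Egfl6 (0.27, 0.30 and 0.19) and Sftpc (0.49, 0.48 and 0.19). The chaperone genes Pdia6, Hspa8 and Hspe1, and Prxl2a, Ctsh and Mia, made up the 10, with lowest values of 0.15 to 0.17. The rho values are descriptions, since barcodes of a library share its preparation and, before thinning, differ in depth.

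The design sets epithelium sorted on Icam1 against epithelium sorted on Epcam alone, and the members of both sorts were compared. Of 12631 genes tested between the members of the Epcam+ Icam+ libraries and those of the Epcam+ library, 4455 (35.3%) were higher and 4367 (34.6%) lower, with 1 residual degree of freedom and a spread borrowed across genes. Leaving out an Epcam+ Icam+ library left no residual degrees of freedom, so no test was run there. Of the 6 genes with the largest differences upward, 5 share exons on their strand with a gene ID held by only some of the tables, and 2 of the 6 downward, against 314 of all 12631 (2.49%). Fdx2, for example, had 552 and 543 UMIs in Epcam+ Icam+ members, against 1 UMI in Epcam+ members. Most single-gene differences between the sorts are therefore not described here.

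The sorts can be compared more closely through the difference between members and other barcodes, in which what is shared by a whole library cancels. Of 14099 genes tested for a difference of that difference, 710 (5.04%) had a higher and 318 (2.26%) a lower value in the Epcam+ Icam+ libraries, with a median of 0.008 and again 1 residual degree of freedom. Of 14 type 2 markers 8 had a larger difference in the Epcam+ Icam+ libraries and 0 a smaller one, with a median of 0.71. With DESeq2 2 passed (5 of the 8 had no adjusted p there), and 3 with counts of the same classes thinned to 5000 UMIs per barcode. Markers of other cell types moved the same way in this comparison, with 4 of 10 macrophage markers larger (median 0.87), 4 of 8 mast cell (2.17), 3 of 6 endothelial (3.10), 2 of 7 mesenchyme (1.03), 4 of 7 red cell (2.17) and 2 of 5 airway markers (0.645), and 0 smaller in each. Without barcodes with over 5 macrophage or mast UMIs 6 of 14 type 2 markers had a larger difference (median 0.46), and 0 macrophage, mast cell or endothelial markers. Lamp3 differed by 3.15 (edgeR adjusted p = 1.54e-19), Sftpc by 1.24, Etv4 by 1.42 and Dlk1 by 1.18. Of these, Etv4 lost the call with thinned counts (edgeR adjusted p = 0.173). Ctsh did not pass, with a difference of 0.03 between the sorts (SE 0.0498, edgeR adjusted p = 0.85). Of 9 tip markers 3 had a larger and 1 a smaller difference (median 0.17), and of 15 type 1 markers 0 a larger and 4 a smaller one (median -0.08). Of 38 S phase genes 25 and of 50 genes of G2 and mitosis 31 had a larger difference in the Epcam+ Icam+ libraries, and 0 a smaller one. The larger differences numbered only 0 and 6 with DESeq2 and 5 and 12 with thinned counts. The other barcodes of the Epcam+ library held more score UMIs (median 3, against 0 in both Epcam+ Icam+ libraries), and the part of that in these values was not tested.

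Markers of other cell types were found in the members at levels that differed between libraries. Summed macrophage markers stood at 38.8, 36.9 and 23.4 CPM in members, against 51.2, 37.1 and 50.1 CPM in the other barcodes, with 3 of 10 lower and 0 higher. Mesenchyme markers stood at 2.70 to 4.68 CPM in members, against 7.94 to 12.1 CPM in the other barcodes (1 of 4 tested lower), and ciliated markers at 10.4 to 10.9 CPM, against 21.4 to 25.7 CPM in the other barcodes (1 of 4 lower). Endothelial markers stood at 28.9, 28.7 and 38.7 CPM in members, nearly all from Egfl7, with Kdr at 0, against 22.1, 22.7 and 55.1 CPM in the other barcodes, so they were above the other barcodes in the Epcam+ Icam+ members, and neither of the 2 tested passed. Neuroendocrine markers stood at 0.919 to 3.21 CPM in members, against 0.687 to 2.91 CPM in the other barcodes (0 of 2 passed). Mast cell markers stood at 4.01, 42.8 and 8.77 CPM in members, against 13.4, 18.5 and 90.9 CPM in the other barcodes (0 of 6 passed, and 4 were lower without Epcam+ Icam+ replicate 2), and airway markers at 17.5, 114 and 9.89 CPM, against 105, 110 and 32.3 CPM in the other barcodes (1 of 5 lower, Krt15, and 3 without Epcam+ Icam+ replicate 2 or the Epcam+ library), with Scgb1a1 and Gabrp at 0 in members. In both lists members of Epcam+ Icam+ replicate 2 stood above the members of the other libraries and above the other barcodes of their own library. Globins and other red cell markers stood at 5.43, 17.6 and 42.3 CPM in members, against 11.7, 121 and 829.5 CPM in the other barcodes, all 4 tested being lower (median -4.18), with Hba-x and Hbb-y at 0 in members. Separate fits left out barcodes with over 5 macrophage and mast cell UMIs together, or barcodes with any Scgb3a2 UMI. The former were 4, 4 and 1 of the members and 19, 12 and 25 of the other barcodes. The part of red cell, mesenchyme, endothelial, ciliated and neuroendocrine transcripts in the members' differences was not tested.

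The median mitochondrial share was 2.67%, 2.60% and 2.06% in members, against 2.96%, 2.89% and 2.13% in the other barcodes, and 0 of 13 mitochondrially encoded genes were higher and 4 lower (1, 0 and 12 lower without each library in turn). Thinned to 5000 UMIs, members had a median of 1870, 1859 and 1860 genes, against 1848, 1829 and 1842.5 in the other barcodes. Of 10 genes of dissociation stress 0 were higher and 4 lower (Fos, Junb, Egr1 and Atf3; 1, 1 and 5 lower without each library in turn), and of 15 genes of glycolysis and hypoxia 2 were higher and 2 lower (6 and 2 without the Epcam+ library). Doublet scores marked 8, 8 and 17 members (1.81%, 1.97% and 3.63%) and 34, 23 and 61 of the other barcodes. Of 6 secreted host defence genes tested (15 listed), 1 was higher (Cfi) and 1 lower (Muc1).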

How the data were processed

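Cells of 3 libraries were measured by 10x Genomics 3' sequencing, and the matrices deposited by the authors hold raw UMI counts for each barcode and gene, per the file headers. For the Epcam+ Icam+ libraries the headers name Cell Ranger 5.0.1, for the other library 3.0.2, the submitters' processing notes 2.1.1 and mm10. The settings of barcode calling (lowest total 500 UMIs) were not given in the sources used here. Of 32285 and 31053 genes, 30406 shared Ensembl IDs were kept, and 1879 and 647 were found only in the Epcam+ Icam+ or Epcam+ tables. Counts were summed per library and class, giving sums of 868317 to 49387721 UMIs, and tested in R 4.3.3 with edgeR 4.0.16 (quasi-likelihood F test, TMM, filterByExpr, library as a block, Benjamini-Hochberg adjustment at 0.05). Rule genes and Epcam were not tested. The biological coefficient of variation was 5.45% over 2 classes, 5.54% over 4, 1.59% in the fit of the sort by class difference and 2.59% among members. SEs are the log2 fold change over the root of F. Alternatives were DESeq2 1.42.0, RLE scaling, no filter, no block, other cutoffs, thinned counts (seed 1), no doublets (scanpy 1.11.5, 0.8% per 1000 barcodes, 126, 113 and 86 barcodes) and each library left out. Thinned fits kept the classes scored on full counts and summed 5000 UMIs per barcode. Two-sided sign tests over 3 libraries cannot reach 0.05. Intervals are exact binomial (95%) and cover counting error only. Free RNA was not removed. The scripts were tested on simulated data. Named genes were the rule's, the listed genes, and the 12 (6 between sorts) that differed most in log2 terms, up and down, among genes past the threshold, at 20 CPM or more, with 1 direction in each library, and not gene models, globins or mitochondrial or ribosomal protein genes. Members and gene lists were chosen with earlier results of these data known.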

Additional observations from a re-analysis of the deposited data

Results flagged for a closer look

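The difference between members and the other barcodes itself differed between the sorts for 34 of the 70 listed or named genes in which this was tested (edgeR adjusted p under 0.05, 1 residual degree of freedom). Over all 14099 genes tested, 1028 (7.29%) passed. The 6 genes named in each direction for this difference were chosen by this same test, so they pass by construction. Other genes were named for large differences between members and the other barcodes in the same sums. The share among the 70 therefore cannot be set against that of all genes. Values are the log2 difference in the Epcam+ Icam+ libraries minus that in the Epcam+ library, and the sort cannot be told apart from the library, the software version and the gene table. The calls depend on the processing. With counts thinned to 5000 UMIs per barcode and the classes unchanged, 13 of the 34 passed. With DESeq2 10 passed, and 14 of the 34 had no adjusted p. With RLE scaling 34 passed, and 27 to 33 under the other alternatives tested.

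In 23 genes the value was above 0. Of type 2 and processing genes these were Slc34a2 (7.10, on 1 UMI in the Epcam+ members), Lamp3 (3.15), Sftpc (1.24), Lyz2 (0.97), Abca3 (0.78), Lpcat1 (0.74), Napsa (0.67), Egfl6 (0.46) and Pgc (0.46). Of tip genes these were Etv4 (1.42), Etv5 (1.04) and Id2 (0.18). The others were Pcsk6 (2.18), Cthrc1 (1.58), Hist2h2bb (1.41), Pthlh (1.37), Lin7a (1.32), Dlk1 (1.18), Cox4i2 (1.05), Dram1 (0.90), Abhd2 (0.48), Rgcc (0.36) and Smoc2 (0.28), of which Smoc2 was lower in the members of both sorts, and less so in the Epcam+ Icam+ libraries.

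In 11 genes it was below 0. These were Igfbp7 (-1.16), Egr1 (-0.98), Ccn2 (-0.83), Lmo7 (-0.81), Lars2 (-0.76), Zfp57 (-0.75), Cdkn1c (-0.41), Gprc5a (-0.29), Timp3 (-0.24), Cldn18 (-0.21) and Sox11 (-0.21). Lost with thinned counts were Slc34a2, Lyz2, Abca3, Napsa, Egfl6, Pgc, Etv4, Hist2h2bb, Pthlh, Abhd2, Rgcc and Smoc2 of those above 0, and Igfbp7, Ccn2, Lmo7, Lars2, Zfp57, Gprc5a, Timp3, Cldn18 and Sox11 of those below. The value of Lyz2 turned to -3.44 at a 90th percentile rule, -3.00 without doublets, -0.46 with 0 C1q UMIs and -0.41 without barcodes with over 5 macrophage or mast UMIs, and that of Smoc2 to -0.37 at the 90th percentile. Groups of 2 and 1 libraries were too small to look for single samples that stand apart.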

How the results depend on the processing

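Members against the other barcodes gave 3143 genes, 1739 of them higher. DESeq2 gave 2025, of which 1368 were higher, thinned counts of unchanged classes 1555, no library block 0 (edgeR, 503 at an unadjusted p under 0.05), and leaving out 1 library 1097 to 5112. Against the type 1 class 3660 genes passed, with thinned counts 1749, no block 17, and without 1 library 1515 to 4355. Against the class high in both 346 passed, with a 90th percentile 131, no filter 1060, thinned counts 130, no block 0 (edgeR, 322 unadjusted), and without 1 library 8 to 684. Against the class high in neither 2682 passed, with a 90th percentile 1750, thinned counts 1260, no block 2, and without 1 library 710 to 3948. Between the sorts' members 8822 passed, with DESeq2 5231 and thinned counts 5138. For the difference between sorts 1028 passed, with DESeq2 78, without doublets 625, with 0 C1q UMIs 653, thinned counts 178 and without barcodes with a Scgb3a2 UMI, chosen after seeing the data, 644. The low counts came without an Epcam+ Icam+ library and the high ones without the Epcam+ library.

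The left-out score genes ranged over 2.87 to 4.73 (Sftpa1), 2.096 to 3.28 (Sftpb) and 1.28 to 2.48 (Cxcl15) without 1 library. Beside Lyz2 and Smoc2 in the difference between sorts (above), directions reversed for 3 of the single genes that had a call. Scgb3a2 against the type 1 class (-2.23) and Icam1 against the class high in both (0.32) reversed at the 90th percentile. Cd74 against the class high in neither (0.13) reversed without barcodes with over 5 macrophage or mast UMIs, chosen after seeing the data. Causes were not tested. Over single genes and alternatives 2815 values were counted as the same. They kept the call, with its direction where a gene was called, or lay within 1 SE where no adjusted p was given. Genes without a call could change direction in this count. Another 379 lost the call (186 of these without the library block), 32 gained it and 15 others moved. The labels give no link between libraries of different sorts, so the sorts were not compared as pairs. Members in the Epcam+ Icam+ libraries with few score UMIs limit how firmly single barcodes are assigned. The Epcam+ members were not firmer when scored on thinned counts. There 45.3% of them were chosen again, against 70.7% and 74.7% in the Epcam+ Icam+ libraries.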
